A study of Homo sapiens with 4 samples.

Results

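Spliceosomal small nuclear RNAs (snRNAs) were followed on 4 Illumina bead arrays of L591, a cell line derived from Hodgkin lymphoma. They were taken as every probe whose platform annotation gives a symbol of RNU followed by a digit, which found 15 of 47231 probes, for 13 of the 20045 genes named by 1 symbol. The choice of this family was selected on the difference between PDLIM2 and mock arrays in these data, in which RNU6ATAC stood out, together with differences between array numbers. Of these, 8 probes belong to 8 snRNA genes of the major spliceosome (U1, U2, U4, U5 and U6), and 5 probes belong to 3 snRNA genes of the minor spliceosome (U11, U4atac and U6atac). None of the 15 probes is for U12, the remaining snRNA of the minor spliceosome, so U12 was not analysed here. The last 2 probes, for RNU105B and RNU105C, fit the symbol rule, but RefSeq lists both genes as small nucleolar RNAs, so they are described apart.

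The 2 PDLIM2 arrays come from L591 cells given 40 µg of pcDNA3 carrying transcript variant 2 of PDLIM2, a putative ubiquitin ligase. The 2 mock arrays come from L591 cells given 40 µg of pcDNA3 alone. Both groups also received 10 µg of pEGFP-N3, a GFP plasmid, and were sorted for GFP, so all 4 arrays come from transfected, sorted cells of 1 line without a stated time point. Arrays are numbered 1 and 2 within each group, and no label says that they came from separate cultures, so the spread between them may be technical.

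In splicing, U1 pairs with the intron's 5′ splice site and U2 with its branch site, and U4, U5 and U6 then join as a tri-snRNP in which U4 holds U6 until catalysis. A rare class of introns uses U11, U12, U4atac and U6atac in the places of U1, U2, U4 and U6, while U5 serves both machineries. RNA polymerase II makes these RNAs, except U6 and U6atac, which RNA polymerase III makes. Mature snRNAs carry no poly(A) tail. The labels describe the extracted molecule as polyadenylated RNA, so how far these signals follow the amounts in the cells is not known, and in a sorted population a change per cell and a change in which cells were sampled cannot be told apart.

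Values are the deposited log2 signals, in which 1 unit is a doubling, and all arrays share nearly the same quartiles, with medians of 6.006 to 6.007. A probe's level depends on its own sequence, so levels are compared between arrays and not between probes. The precision is limited by the number of arrays, 2 per group. All 8 genes fixed as markers of Hodgkin and Reed-Sternberg cells passed the brightness filter. FSCN1, CCL22, CD70, CD40, TRAF1 and IRF4 read between 11.02 and 14.41 in PDLIM2 and between 10.83 and 14.22 in mock, while the defining marker TNFRSF8 read 6.75 in PDLIM2 and 6.73 in mock and CCL17 read 6.07 in PDLIM2 and 6.08 in mock. Of these, CD40 (-0.09) and CCL17 (-0.01) had lower values in PDLIM2. Among the B-cell markers CD79A read 11.76 in PDLIM2 and 11.57 in mock, and MS4A1 read 5.96 and PAX5 5.68 in PDLIM2, against 6.13 and 5.72 in mock. Of the 3 T-cell markers CD2 was bright, at 11.83 in PDLIM2 and 11.88 in mock, and CD3D and CD3E lay under the brightness filter, as did both erythroid genes. The 3 myeloid markers lay between 5.87 and 7.31 in PDLIM2 and between 5.82 and 7.29 in mock. Across all marker lists the differences, PDLIM2 minus mock, ran from -0.17 to 0.28.

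The snRNA probes read higher in the PDLIM2 arrays than in the mock arrays in nearly every class. The difference, PDLIM2 minus mock, was above 0 for 12 of the 13 spliceosomal probes, against 52.8% of the 23615 probes bright enough to be tested. The median over the 13 was 0.70, with a range of -0.03 to 1.67, against a median of 0.01 over all tested probes. For 10 of the 13 the lower PDLIM2 value exceeded the higher mock value, as it did for 15.8% of all tested probes. At least 1.5-fold higher were 10 as well, against 0.449% of all tested probes, with RNU4ATAC in the first set alone and a probe for RNU11 in the second set alone. The difference was above 0 within both array numbers for 11 of the 13, against 29.5%. No spliceosomal probe had both PDLIM2 values below both mock values (12.8% of all tested probes) or was at least 1.5-fold lower (1.64%). The snRNAs were picked with this contrast already known, so their differences are given as a description without a test. Over all tested probes limma called none higher or lower at an adjusted p under 0.05 (0% each way), and 665 had an unadjusted p under 0.05. With PDLIM2 array 1 left out the median difference was 1.04 over the major and 1.16 over the minor spliceosome probes. With PDLIM2 array 2 left out it was 0.39 over the major and 0.32 over the minor probes. In both cases 1 array stood for its whole group, so limma calls from these fits are not used to describe the snRNAs. The numbers of such calls are listed only in the last section, among the processing settings. Of the 13 spliceosomal probes 12 passed the brightness filter, all but the one for RNU5D-1.

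**Figure D1:**
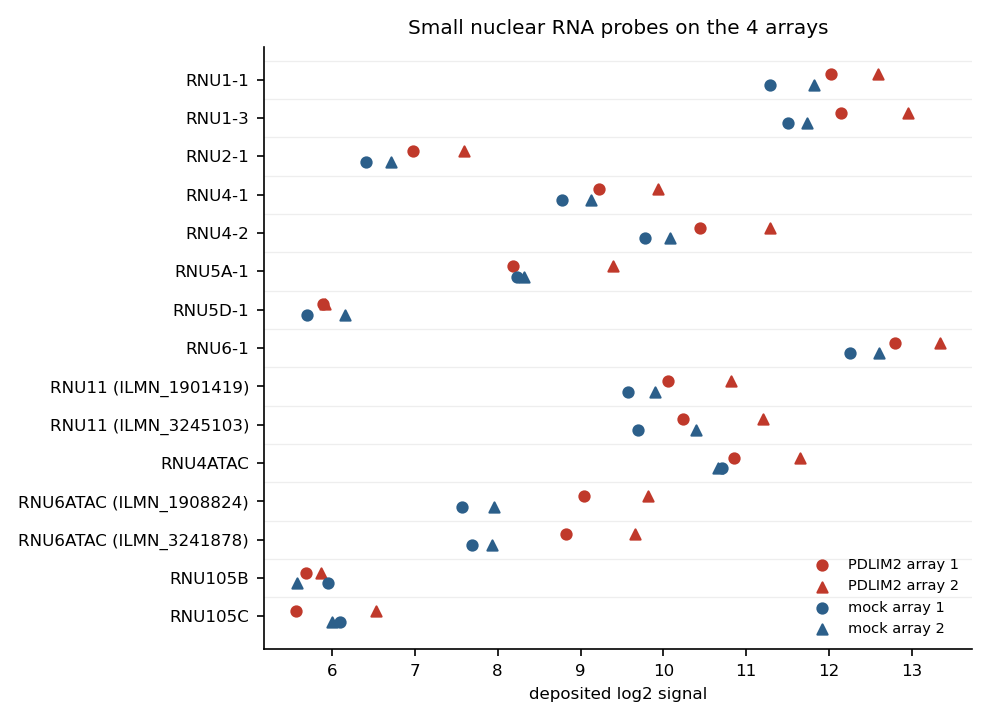
Deposited log2 signal (horizontal axis) of the 15 probes on the 4 arrays, with PDLIM2 in red above mock in blue, circles for array 1 and triangles for array 2. For 10 spliceosomal probes both red points lie to the right of both blue points, and the PDLIM2 array 2 is the rightmost point for 12 of the 13. Distances between rows have no meaning, since each probe has its own brightness.

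U1 was read by probes for RNU1-1 and RNU1-3, closely similar copies whose signals the array may not separate. The RNU1-1 probe (ILMN_3245678) read 12.03 and 12.59 in the PDLIM2 arrays 1 and 2, against 11.28 and 11.82 in the mock arrays 1 and 2. The groups did not overlap, and the lower PDLIM2 value lay 0.20 above the higher mock value. Its difference was 0.76 (limma SE 0.26), or 1.69-fold, and was nearly the same within number 1 (0.74), comparing the arrays that carry that number, and within number 2 (0.77). The RNU1-3 probe (ILMN_3246273) read 12.14 and 12.95 in the PDLIM2 arrays, against 11.50 and 11.74 in the mock arrays. Its groups did not overlap either, and its difference of 0.93 (SE 0.28) came to 0.63 within number 1 and 1.22 within number 2.

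U2, which marks the branch site, was read by 1 probe for RNU2-1 (ILMN_2057836), much nearer the brightness filter at 5.99 than those for U1. It read 6.98 and 7.59 in the PDLIM2 arrays, against 6.41 and 6.71 in the mock arrays. The groups did not overlap, and the difference was 0.73 (SE 0.24), or 1.65-fold. With 50 added to the intensity before the logarithm, which shrinks differences of dim probes, it was 0.52.

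U4, the RNA that holds U6 inactive, was read by probes for the neighbouring genes RNU4-1 and RNU4-2, which are also closely similar. RNU4-2 (ILMN_3308138) read 10.44 and 11.29 in the PDLIM2 arrays, against 9.78 and 10.08 in the mock arrays. RNU4-1 (ILMN_3309453) read 9.23 and 9.93 in the PDLIM2 arrays, against 8.78 and 9.13 in the mock arrays. Both probes had groups that did not overlap, although the gap for RNU4-1 was only 0.10. Their differences were 0.94 (SE 0.29) for RNU4-2 and 0.63 (SE 0.27) for RNU4-1. Both were larger within number 2 (1.21 and 0.80) than within number 1 (0.66 and 0.45).

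U6, which forms part of the catalytic centre, was read by a bright probe for RNU6-1 (ILMN_3308335). It read 12.79 and 13.34 in the PDLIM2 arrays, against 12.26 and 12.60 in the mock arrays. The groups did not overlap, and the difference was 0.64 (SE 0.24), or 1.56-fold, with 0.54 within number 1 and 0.74 within number 2. U6 is present in many near-identical gene copies, so this probe cannot be assigned to 1 of them. The size of the differences described so far depended on the PDLIM2 array 2. Leaving it out gave 0.47 for RNU1-1, 0.52 for RNU1-3, 0.42 for RNU2-1, 0.27 for RNU4-1, 0.51 for RNU4-2 and 0.37 for RNU6-1, all still above 0. Leaving out another array moved RNU1-1 and RNU4-1 by over 1.5 times: RNU1-1 was 0.49 with mock array 1 left out, and RNU4-1 was 0.98 with PDLIM2 array 1 left out.

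U5, the snRNA common to both spliceosomes, had groups that overlapped on both of its probes. RNU5A-1 (ILMN_3237617) read 8.18 and 9.39 in the PDLIM2 arrays, against 8.24 and 8.32 in the mock arrays. Only the PDLIM2 array 2 stood above the mock arrays, and the difference of 0.51 (SE 0.36) averaged -0.06 within number 1 and 1.08 within number 2. With PDLIM2 array 2 left out it was -0.09, and with PDLIM2 array 1 left out it was 1.11. RNU5D-1 (ILMN_3236102), a variant copy, read 5.89 and 5.91 in the PDLIM2 arrays, against 5.70 and 6.16 in the mock arrays. Both PDLIM2 values lay between the mock values, and the difference was -0.03 (SE 0.19). This probe lay under the brightness filter, so whether it reads any RNU5D-1 signal is unknown.

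In the minor spliceosome, U11, which recognises the 5′ splice site there, was read by 2 probes that gave similar differences. The probe taken from the EST BP873537 (ILMN_1901419) read 10.05 and 10.82 in the PDLIM2 arrays, against 9.57 and 9.90 in the mock arrays. The probe for the RefSeq transcript (ILMN_3245103) read 10.24 and 11.21 in the PDLIM2 arrays, against 9.69 and 10.39 in the mock arrays. The groups were separate on the first probe, by 0.15, and overlapped on the second, where the mock array 2 lay above the PDLIM2 array 1. The differences were 0.70 (SE 0.28) and 0.68 (SE 0.36). Leaving out PDLIM2 array 2 gave 0.32 and 0.20, and leaving out PDLIM2 array 1 gave 1.08 and 1.16. For the second probe it was 0.33 with mock array 1 left out and 1.03 with mock array 2 left out.

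U4atac and U6atac pair with each other as U4 and U6 do, and they differed unequally between the groups. RNU4ATAC (ILMN_3240594) read 10.85 and 11.65 in the PDLIM2 arrays, against 10.70 and 10.66 in the mock arrays. The mock arrays were close together, the PDLIM2 array 1 lay only 0.15 above them and the PDLIM2 array 2 was well above. Its difference was 0.57 (SE 0.27), the mean of 0.15 within number 1 and 0.996 within number 2, and it was 0.17 with PDLIM2 array 2 left out and 0.97 with PDLIM2 array 1 left out.

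RNU6ATAC had the highest difference of all spliceosomal probes, on both of its probes. The first (ILMN_1908824) read 9.04 and 9.81 in the PDLIM2 arrays, against 7.57 and 7.95 in the mock arrays. The second (ILMN_3241878) read 8.83 and 9.66 in the PDLIM2 arrays, against 7.69 and 7.93 in the mock arrays. The groups were wide apart, with gaps of 1.09 and 0.90 between the lower PDLIM2 and the higher mock value. The differences were 1.67 (SE 0.28) and 1.43 (SE 0.28), or 3.18-fold and 2.70-fold, and they held ranks 4 and 6 among the 23615 tested probes. Other small noncoding RNAs differed as much. RNA5S9, a 5S RNA, differed by 1.90, and the Cajal body RNAs SCARNA8, SCARNA14 and SCARNA11 by 1.76, 1.69 and 1.64. The tested H/ACA and Cajal body probes together had a median of 0.03. Within number 1 the RNU6ATAC differences were 1.48 and 1.14, and within number 2 they were 1.86 and 1.73. With an array left out they ran from 1.28 to 2.06 on the first probe and from 1.02 to 1.85 on the second.

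**Figure D2:**
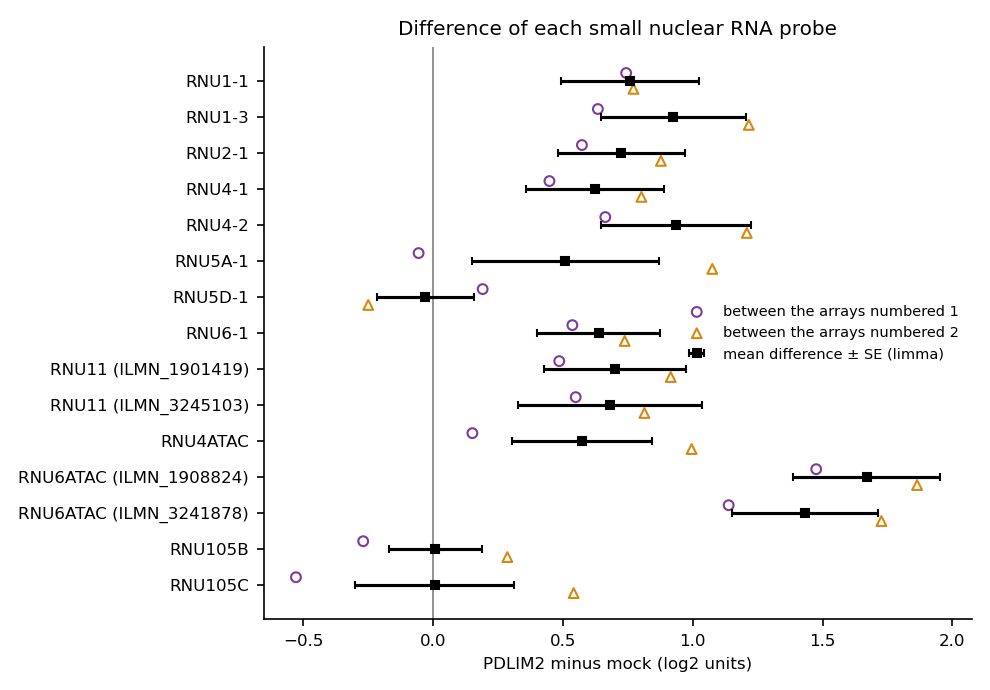
PDLIM2 minus mock in log2 units (horizontal axis) for each of the 15 probes, as the mean difference with its limma standard error (black), within number 1 (circles) and within number 2 (triangles). Both RNU6ATAC probes lie beyond 1.4, the other spliceosomal probes except RNU5D-1 lie between 0.51 and 0.94, and 11 of the 13 are above 0 within both numbers.

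The other spliceosomal snRNAs ranked lower than RNU6ATAC by their difference. RNU4-2 held rank 19, RNU1-3 rank 22 and RNU1-1 rank 40 of the 23615 tested probes, and RNU4ATAC and RNU5A-1, the last of the 12 tested, held ranks 116 and 192. At least 1.5-fold higher were 106 of the 23615 tested probes (0.449%), and 10 of them were among the 12 tested spliceosomal probes. A further 9 were among the 94 tested box C/D nucleolar RNA probes, 17 among the 107 for H/ACA and Cajal body RNAs and 7 among the 10 for 5S, 7SK, Y and vault RNAs. At least 1.5-fold lower were 0 spliceosomal, 0 box C/D, 1 H/ACA or Cajal body and 0 of the 5S, 7SK, Y and vault probes, against 1.64% of all tested probes.

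Major and minor spliceosome snRNAs had similar typical differences. The median difference was 0.70 over the 5 minor probes and 0.68 over the 8 major probes, which leaves 0.02 between them. Within number 1 the medians were 0.55 (minor) and 0.55 (major), and within number 2 they were 0.996 (minor) and 0.84 (major). Without both RNU6ATAC probes the minor median was 0.68, with U11 and U4atac at 0.57 to 0.70, inside the range of the major probes. Both U5 probes were counted as major. Over the 7 major probes above the brightness filter, without RNU5D-1, the major median was 0.73, above the minor median of 0.70. The medians depended on which array was left out. Leaving out PDLIM2 array 1 gave 1.16 (minor) and 1.04 (major), and leaving out PDLIM2 array 2 gave 0.32 (minor) and 0.39 (major). Leaving out mock array 1 gave 0.60 (minor) and 0.48 (major), and leaving out mock array 2 gave 1.03 (minor) and 0.84 (major).

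The snRNA signals also moved with the array number, in both groups. Array 2 read higher than array 1 in both groups for 12 of the 13 spliceosomal probes, against 32.2% of all tested probes, and RNU4ATAC was the exception, with -0.04 in mock. The median of array 2 minus array 1 was 0.77 in PDLIM2, over a range of 0.02 to 1.21, and 0.33 in mock, over a range of -0.04 to 0.70. Over all tested probes these medians were 0.01 in PDLIM2 and -0.01 in mock. The change from array 1 to array 2 was larger in PDLIM2 than in mock for 12 of 13 probes, against 51.7% of all tested probes, most for RNU5A-1 (1.21 in PDLIM2 and 0.08 in mock) and RNU4ATAC (0.80 in PDLIM2 and -0.04 in mock), and RNU5D-1 was the exception (0.02 in PDLIM2 and 0.47 in mock). For RNU1-1 it was nearly equal, at 0.57 in PDLIM2 and 0.54 in mock. In limma the array number gave calls for 7 tested probes (0.0296%), and 0 of them were snRNA probes. That fit leaves out the groups. With group as a term it called 55 of 23615 probes, and the other settings gave 0 to 254, in each case with 0 snRNA probes. Calls were rare over all tested probes, so their absence among so few snRNA probes decides nothing about the snRNAs. The array number as a block in the PDLIM2 fit gave 1 call, again for no snRNA. What the number stands for is not stated.

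Set around each probe's own mean, the 4 arrays fell into a common order for most snRNAs. The median deviation of the 13 spliceosomal probes was 0.05 in the PDLIM2 array 1 and 0.73 in the PDLIM2 array 2, against -0.52 in the mock array 1 and -0.21 in the mock array 2. The PDLIM2 array 2 was the highest of the 4 for 12 of 13 probes, against 32.4% of all tested probes, and for RNU5D-1 the mock array 2 was. The mock array 1 was the lowest for 11 of 13, against 23.6% of all tested probes. The exceptions were RNU5A-1, which was lowest in the PDLIM2 array 1, and RNU4ATAC, which was lowest in the mock array 2.

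**Figure D3:**
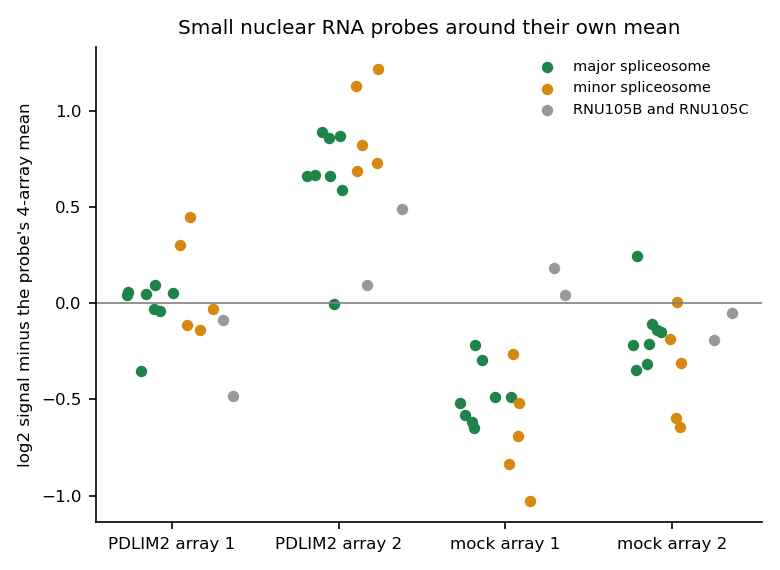
Log2 signal of each of the 15 probes minus its own mean over the 4 arrays (vertical axis), by array, with major spliceosome probes in green, minor ones in orange and RNU105B and RNU105C in grey; the sideways spread within an array only separates points. The PDLIM2 array 2 is highest for 12 of the 13 spliceosomal probes, all but RNU5D-1, and the mock array 1 is lowest for 11.

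RNU105B and RNU105C had differences near 0, and RNU105C shared part of the order of arrays, with the PDLIM2 array 2 highest and the PDLIM2 array 1 lowest, as for RNU5A-1. RNU105B (ILMN_3247718) read 5.69 and 5.87 in the PDLIM2 arrays, against 5.96 and 5.58 in the mock arrays. RNU105C (ILMN_3242818) read 5.57 and 6.54 in the PDLIM2 arrays, against 6.09 and 5.996 in the mock arrays. The groups overlapped on both, the differences were 0.01 (SE 0.18) for RNU105B and 0.01 (SE 0.31) for RNU105C, and both probes were dim, with RNU105B under the brightness filter. With them the median difference over all 15 probes was 0.68, and it ran from 0.32 without the PDLIM2 array 2 to 1.04 without the PDLIM2 array 1.

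Other small noncoding RNAs were set beside the snRNAs, using their probes above the brightness filter. The 10 probes for 5S, 7SK, Y and vault RNAs had a median PDLIM2 minus mock difference of 0.83, and the groups were separate with PDLIM2 higher for 8 and lower for 1. Over all tested probes those shares were 15.8% and 12.8%. The 94 box C/D (SNORD) probes had a median of 0.14, with 36 separate and higher and 6 separate and lower. The 107 H/ACA and Cajal body probes had a median of 0.03 over a range of -0.86 to 1.76, with 26 and 10 (24.3% and 9.35%). The 12 tested spliceosomal probes had a median of 0.71, with 10 and 0. The array number was set beside these groups in the same way. Array 2 was higher than array 1 in both groups for 11 of the 12 tested spliceosomal probes, for 0 of the 10 probes of 5S, 7SK, Y and vault RNAs, for 17 of the 94 SNORD probes and for 12 of the 107 H/ACA and Cajal body probes, against 32.2% of all tested probes. Among the 17 were the probes for U3, a nucleolar RNA of ribosome maturation, picked out here after their values were seen. They gave 1.02 in PDLIM2 and 0.82 in mock for SNORD3A, 1.54 in PDLIM2 and 0.42 in mock for SNORD3C, and 1.11 in PDLIM2 and 0.74 in mock for SNORD3D. The median of array 2 minus array 1 was 0.79 in PDLIM2 and 0.32 in mock for the spliceosomal probes, and -0.07 in PDLIM2 and -0.14 in mock for the 5S, 7SK, Y and vault probes. These contrasts between groups of RNAs are descriptions and were not tested.

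**Figure D4:**
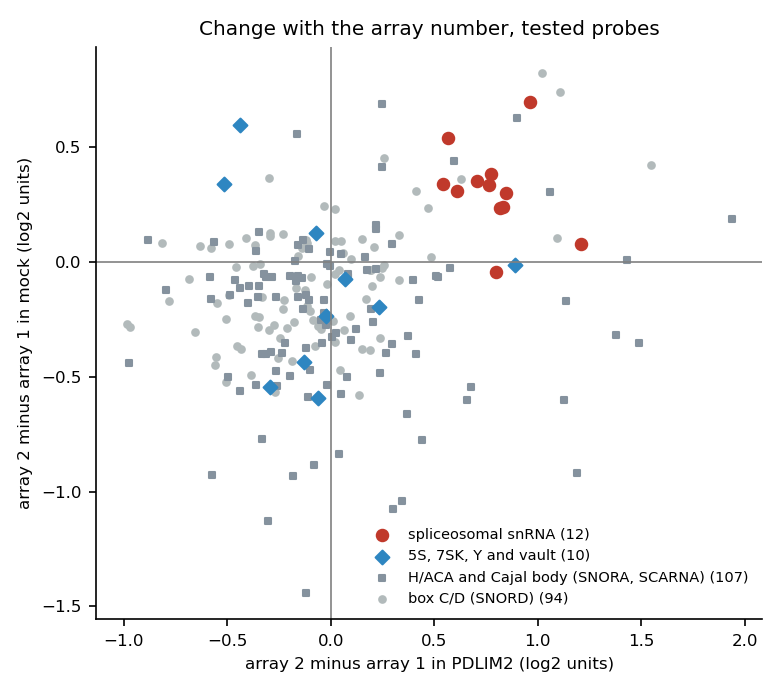
Array 2 minus array 1 in PDLIM2 (horizontal axis) and in mock (vertical axis), in log2 units, for tested probes of 4 groups of small RNAs. All 12 spliceosomal probes (red) lie right of 0 and 11 lie above 0 as well, while none of the 10 probes for 5S, 7SK, Y and vault RNAs (blue diamonds) is above 0 on both axes.

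Some snRNA genes overlap other genes in RefSeq, and the array had probes for 3 of these neighbours. CLASP1, a microtubule-binding protein gene that holds RNU4ATAC, read 10.54 and 10.94 in the PDLIM2 arrays, against 10.59 and 10.90 in the mock arrays. Its groups overlapped, with a difference of -0.004 (SE 0.21), beside 0.57 for RNU4ATAC. SIRT4, a mitochondrial sirtuin gene whose annotation spans RNU4-1 and RNU4-2, read 7.42 and 7.31 in the PDLIM2 arrays, against 7.39 and 6.999 in the mock arrays, a difference of 0.17 (SE 0.20). PLCB1, a phospholipase C gene that holds RNU105B, was dim and differed by 0.21 (SE 0.16).

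Genes for snRNP proteins and for the making, assembly and maturation of snRNAs were taken from 6 lists. Their differences lay between -0.61 and 0.46. Of these 109 tested genes limma called none at an adjusted p under 0.05, as it called no other probe. Over the 6 lists 64 genes had higher and 45 lower values, where 52.8% of all tested probes were higher, and the median difference was 0.04. The groups were separate with PDLIM2 higher for 26 of the 109 and with PDLIM2 lower for 13, where 15.8% and 12.8% of all tested probes were. The U1, U2 and Sm core proteins had a median of -0.05 over 23 genes, with 8 higher and 15 lower values, of which 5 and 3 had separate groups. SNRPD3, a protein of the Sm ring that forms on most snRNAs, read 8.21 and 7.04 in the PDLIM2 arrays, against 8.08 and 8.04 in the mock arrays, a difference of -0.43 (SE 0.35) that rested on the PDLIM2 array 2. SF3A1, a subunit of the U2 snRNP, differed by -0.34 (SE 0.21).

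Proteins of U4/U6 and U5 had a median difference of 0.09 over 22 tested genes, with 14 higher and 8 lower values, of which 5 and 2 had separate groups. PRPF4, a U4/U6 protein, differed by 0.44 (SE 0.23) and its groups did not overlap, and PRPF6, which bridges the tri-snRNP, differed by -0.32 (SE 0.24) with groups that overlapped. The proteins of the minor spliceosome had a median of 0.02 over 12 genes, with 7 higher and 5 lower values, of which 1 and 3 had separate groups. Of all tested probes, 15.8% had separate groups with PDLIM2 higher and 12.8% with PDLIM2 lower. PDCD7, a U11/U12 protein, differed by -0.27 (SE 0.18) and TXNL4B by -0.25 (SE 0.17), both with PDLIM2 values below the mock values, in the other direction from U11 and U6atac RNA.

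Genes for making and maturing snRNAs differed by -0.61 to 0.46. Those for transcription and 3′ end processing had a median of -0.001 over 24 tested genes, with 12 higher and 12 lower values, of which 3 and 5 had separate groups. INTS6, a subunit of the Integrator complex that cleaves the 3′ ends of nascent snRNAs, read 10.23 and 9.79 in the PDLIM2 arrays, against 10.60 and 10.64 in the mock arrays. Its difference of -0.61 (SE 0.20) was the only one among the 109 genes to reach 1.5-fold. Of all tested probes 1.64% were at least 1.5-fold lower and 0.449% at least 1.5-fold higher. INTS5, another Integrator subunit, differed by 0.39 (SE 0.17). Genes for capping, export, import and snRNP assembly had a median of 0.19 over 21 genes, with 18 higher and 3 lower values, where 52.8% of all tested probes were higher. Of the 21 genes 9 had separate groups with PDLIM2 higher and 0 with PDLIM2 lower, where 15.8% and 12.8% of all tested probes did. GEMIN4 and GEMIN6, members of the SMN complex that loads Sm proteins onto snRNAs, differed by 0.46 (SE 0.17) and 0.44 (SE 0.17). Among 7 genes for U6 and U6atac maturation the median was 0.11, with 5 higher and 2 lower values, of which 3 and 0 had separate groups. LARP7, which binds U6 and 7SK, differed by 0.33 (SE 0.17), and MEPCE, which caps the 5′ end of 7SK and U6, differed by -0.42 (SE 0.26) with groups that overlapped.

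**Figure D5:**
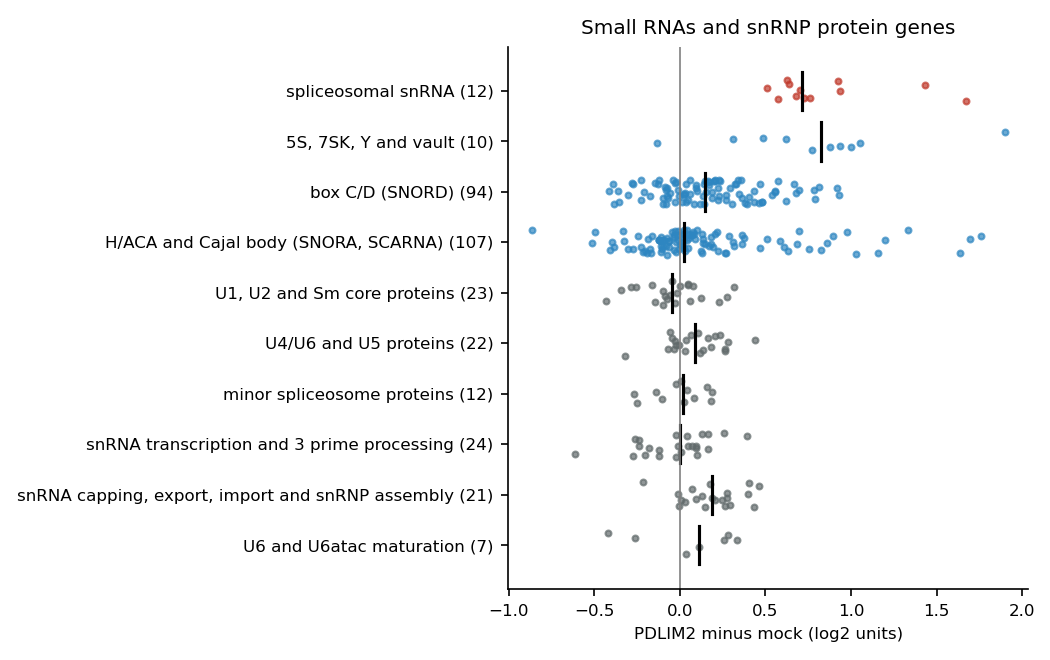
PDLIM2 minus mock in log2 units (horizontal axis) for tested probes of 4 groups of small RNAs and for the brightest tested probe of each gene in 6 lists of snRNP and snRNA maturation genes. Each point is 1 probe and the black lines are medians, which lie at 0.71 for the spliceosomal snRNAs and between -0.05 and 0.19 for the 6 gene lists.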

How the data were processed

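Biotin-labelled RNA of 4 samples was measured on Illumina bead arrays. Per the labels, groups and array numbers come from the sample titles. The authors deposited log2 signals, 1 for each probe on each array. How these were scanned, corrected for background and normalized is not stated in the labels or the file. Quartiles of the arrays differed by at most 0.000808 log2 units, under the 0.05 allowed, so values were used as deposited. Of 47231 probes, 47230 were complete. Detection p-values were not used here.

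Tests covered the 23615 probes whose 4-array mean exceeded 5.99, the median over probes. They used limma 3.58.1 (lmFit, eBayes) in R 4.3.3 (2 residual and 5.10 prior degrees of freedom), two-sided, with Benjamini-Hochberg adjustment at 0.05. Probes under the filter got their difference and SE from the same fit on all complete probes. A second fit compared array numbers. The fit was tested on simulated data.

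Members were matched through the platform annotation, and all 13 member genes through gene IDs to RefSeq (GRCh38.p14), used for names, gene kinds and overlaps alone. Every member probe is described. From each of 6 pathway lists the 2 genes with the greatest absolute difference are named. The neighbouring genes and the groups of small RNAs were not tested. Members and lists were chosen with earlier results of these data known. Sequences of the snRNAs and probes were not used here.

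The alternatives were other brightness filters, quantile normalization, median centring, an offset of 50, limma-trend, a robust prior, the replicate block, group as a term in the array number fit, each array left out, tested members alone and the mean over a gene's probes. Medians without RNU6ATAC were added after seeing the data.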

Additional observations from a re-analysis of the deposited data

How the results depend on the processing

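The count of 0 called probes for PDLIM2 minus mock was the same in limma with quantile normalization, the offset, limma-trend, the robust prior, no filter and a filter at the 75th percentile. No label ties arrays of the same number beyond that number. In the deposited values, however, the highest signal was 14.985 in both arrays numbered 1 and 15.073 in both numbered 2. The reason for these shared values was not tested. The replicate block called 1 probe, which reads no snRNA, and across probes the deviations of arrays with the same number had r = 0.476 (probes are not independent). Fits that leave out 1 array keep a lone array, taken to be as variable as the rest, and they called 0 to 810 probes, 810 when PDLIM2 array 1 was the one left out (12 read snRNAs) and 45 for PDLIM2 array 2 (2 read snRNAs). The count between array numbers, 7, was 135 with no filter, 1 at the 75th percentile, 0 with the offset (3688 at an unadjusted p under 0.05), 254 with limma-trend, 94 with the robust prior and 55 with group as a term. The median difference of the major spliceosome probes with an array left out ranged between 0.39 and 1.04. It moved by more than its spread between arrays, 0.35, with PDLIM2 array 1 left out. The median of the minor probes ranged between 0.32 and 1.16, and that of all 15 probes between 0.32 and 1.04. These 2 medians moved by less than their own, larger spreads between arrays (0.47 and 0.39) under each alternative, so they were not steadier. Within array numbers, the median of all 15 was 0.54 and 0.88. The number of probes with separate groups was 10, or 9 genes with probes averaged. Of 60 member differences with an array left out 6 changed sign, all for RNU5A-1, RNU5D-1, RNU105B or RNU105C, and of 45 under another scaling 0 did. The deposited arrays already share their quartiles, so quantile normalization and median centring could change little. The causes of these moves were not tested. Without signal over background, how far dim probes such as RNU5D-1 can show a difference is unknown.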
